A study of Mus musculus with 6 samples.

Results

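The matrix-binding integrins were 10 genes, Itga1, Itga2, Itga3, Itga5, Itga6, Itga8, Itga11, Itgav, Itgb1 and Itgb6. They were taken as a list of names and matched to the array through the RefSeq accession of each probe. All 10 were found among 23462 named genes, with 16 probes in all. An integrin is a receptor made of an alpha and a beta chain that spans the cell membrane, binds the extracellular matrix outside the cell and is coupled to the actin cytoskeleton inside it by talins and kindlins. Itga1, Itga2 and Itga11 recognise collagens, Itga3 and Itga6 recognise laminins of the basement membrane, and Itga5, Itga8 and Itgav recognise ligands that carry the tripeptide Arg-Gly-Asp (RGD). Itgb1 is the beta partner that these alpha chains share, whereas Itgb6 is an epithelial beta chain that pairs with Itgav and releases active TGF-beta from its latent complex.

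The values came from colon RNA of 6 male mice, 3 of them Islr knockouts and 3 controls, with 1 array per animal. Islr codes for a secreted protein of stromal cells that carries leucine-rich repeats. By the sample source, both groups had drunk 3.5% dextran sulfate sodium, which injures the colonic epithelium, for 5 days and had then recovered for 1 day; another field of the labels gives no treatment. The animals' age and strain, the controls' alleles and the cells in which Islr was deleted are not given in the sources used here. The design text speaks of flow separation without naming a cell population, and on every array all 10 epithelial, all 10 fibroblast and all 10 smooth muscle markers examined were well above background, so RNA of several tissue layers was present. In such bulk RNA, fewer cells of a type and less RNA per cell cannot be told apart.

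Signals are given as log2 values relative to the 75th percentile of the same array, which was 4910 to 7110 intensity units, and every change is knockout minus control on that scale. Islr itself fell in knockouts, with a change of -2.44 (SE 0.21, adjusted p 0.0171 in limma), and this check of the labels kept its call in 12 of the 13 alternatives that could be run for it. The exception was the fit without knockout replicate 3 (adjusted p 0.0580); without control replicate 2 or 3 too few usable values were left to test it. Over the whole array 1403 of 35351 tested probes were called at a 5% false discovery rate, which is 3.97%. When 1 array was left out this count was 40 (knockout replicate 3 left out), 71 (control replicate 2), 90 (control replicate 3), 263 (knockout replicate 1) or 2114 (control replicate 1). The slide held the controls in its first row and the knockouts in its second, and so position on the slide and genotype cannot be told apart.

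Of the 16 integrin probes 13, from 9 genes, could be tested, and 0 were called; the background of called probes was the 3.97% given above. The other 3 probes, including the sole probe of Itgav, had too few usable values because the scanner software had marked their spots as outliers. With those spots kept all 16 probes of the 10 genes could be tested and 1 was called, a probe of Itga6 that was higher in knockouts, where 4.85% of all probes were called, 1.96% in that direction. An unadjusted p under 0.05 was reached by 4 of the 13 probes, all of them higher in knockouts, against 26.8% of all tested probes in either direction and 12.8% higher. With outlier spots kept 7 of 16 reached it, 5 higher and 2 lower, against 27.3% of all probes (13.3% higher and 14% lower). The groups did not overlap at 5 of the 13 probes (38.5%), all 5 with higher knockouts, against 37.3% of all tested probes (18.2% higher). With outlier spots kept the groups did not overlap at 8 of 16 (50%), 6 higher and 2 lower, against 34.9% of all probes (17.3% higher and 17.6% lower). Read without regard to direction, these shares lay near the background, apart from the 2 that keep outlier spots, which include 12 of 96 integrin values marked as outliers. Their median change was 0.09 over the 13 tested probes, where the median of all tested probes was 5.75e-05. Within the set the directions were split by gene, with Itga3, Itga6 and Itgb6 higher at every probe and Itga1, Itga2, Itga5, Itga11 and Itgav lower at every probe.

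**Figure D1:**
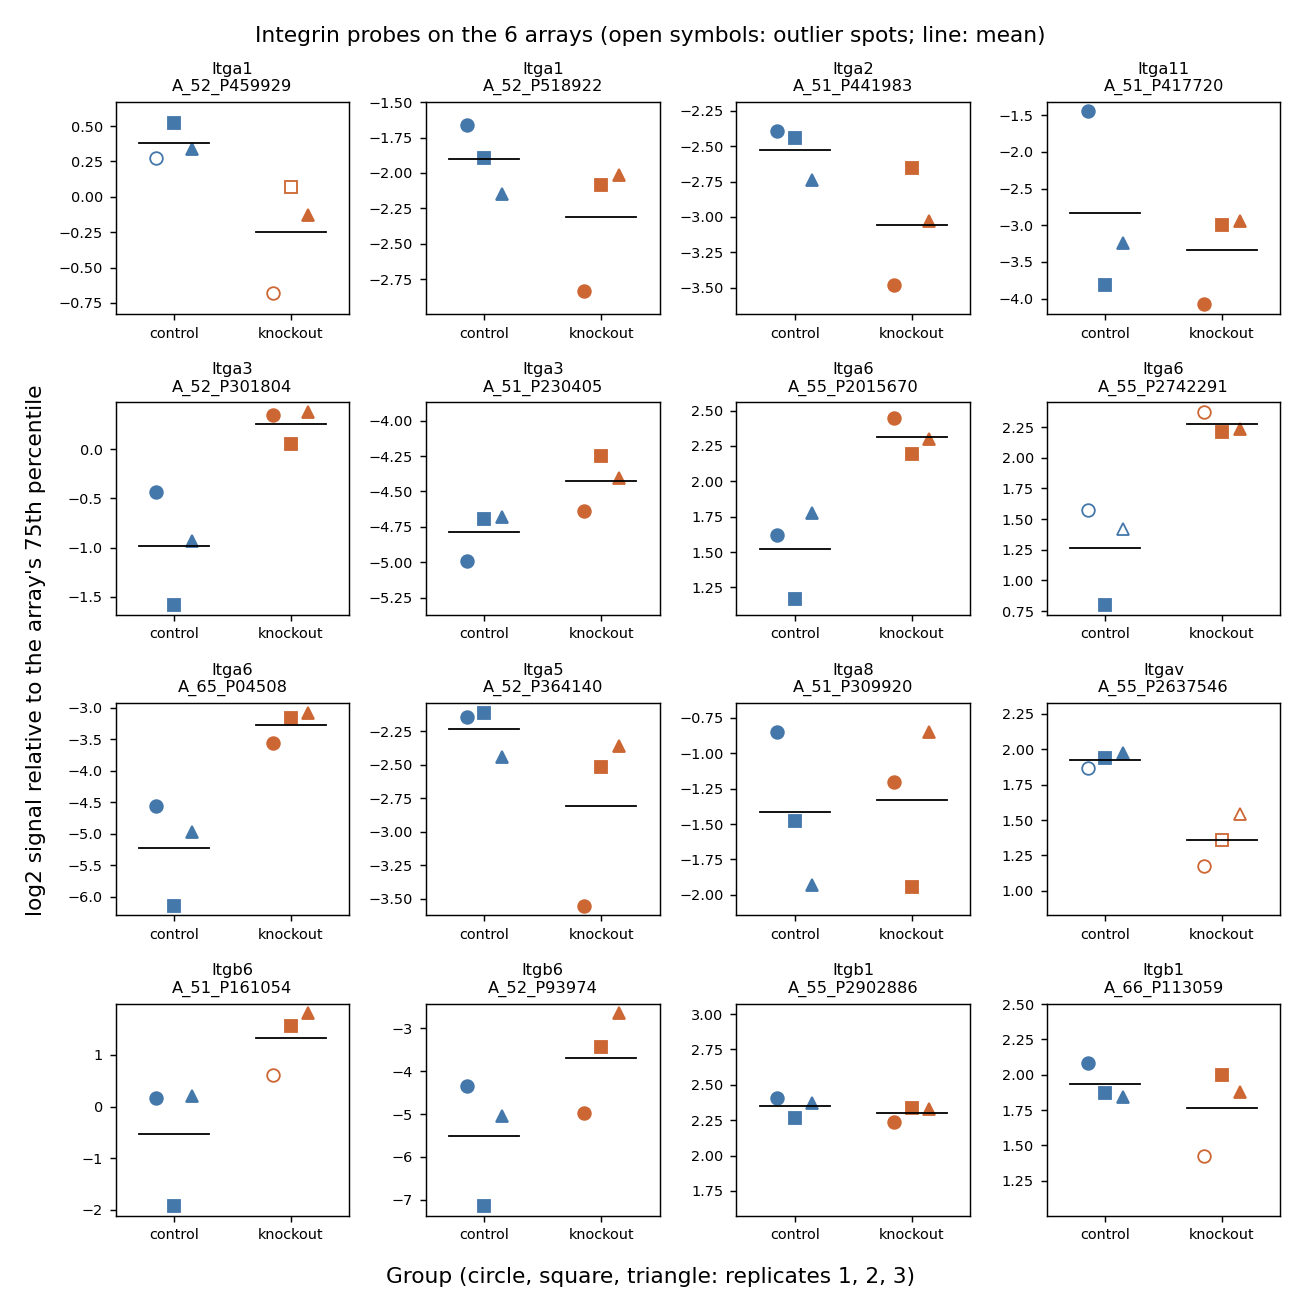
Log2 signal minus that of the array's 75th percentile (vertical axis, separate scale in each panel) of the 16 integrin probes on the 3 control and 3 knockout arrays; each symbol is 1 array, open symbols are outlier spots and lines are means. Both Itga3 probes and all 3 Itga6 probes have every knockout above every control, and Itgav has every knockout below every control.

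Of the 10 genes 9, all but Itga6, matched a promoter window. To show the regulatory sequence beside these directions, the promoter windows of 4 integrin genes are printed here: Itga3 and Itgb6, which were higher, Itgav, which was lower, and Itgb1, which was close to level. Each window holds 250 bases before and 50 after the annotated start, from RefSeq on build GRCm38.p6, at chr11:95076665-95076964 (minus strand) for Itga3, chr2:60722554-60722853 (minus strand) for Itgb6, chr2:83724147-83724446 (plus strand) for Itgav and chr8:128685404-128685703 (plus strand) for Itgb1. Where a gene had 2 windows, as Itga3 and Itgb6 did, the most upstream one was taken. Sequences run 5′ to 3′ on the gene's strand, and capitals mark matches on either strand to 5 short motifs. No matches overlapped in these windows. The letters GGAATG, known to be bound by TEAD factors, were found in 14.7% of all 32851 promoter windows of the table. The AP-1 motif TGANTCA stood in 7.81% of these windows. The Sp1 motif GGGCGG was the most frequent, in 35.7% of windows. A TATA box, searched as TATAAA, was present in 13.6%. The Ets motif CCGGAAG was present in 8.86%.
Itga3: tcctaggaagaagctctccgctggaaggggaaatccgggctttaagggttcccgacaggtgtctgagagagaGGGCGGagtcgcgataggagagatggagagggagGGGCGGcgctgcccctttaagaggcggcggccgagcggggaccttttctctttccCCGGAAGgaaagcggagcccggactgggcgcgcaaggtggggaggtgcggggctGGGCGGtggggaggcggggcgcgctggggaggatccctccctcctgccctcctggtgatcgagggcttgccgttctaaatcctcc
Itgb6: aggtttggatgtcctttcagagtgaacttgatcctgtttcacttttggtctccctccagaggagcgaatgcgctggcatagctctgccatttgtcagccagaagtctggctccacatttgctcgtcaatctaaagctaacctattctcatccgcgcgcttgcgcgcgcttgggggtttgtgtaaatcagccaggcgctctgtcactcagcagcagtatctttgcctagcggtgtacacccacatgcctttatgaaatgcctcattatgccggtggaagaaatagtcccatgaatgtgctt
Itgav: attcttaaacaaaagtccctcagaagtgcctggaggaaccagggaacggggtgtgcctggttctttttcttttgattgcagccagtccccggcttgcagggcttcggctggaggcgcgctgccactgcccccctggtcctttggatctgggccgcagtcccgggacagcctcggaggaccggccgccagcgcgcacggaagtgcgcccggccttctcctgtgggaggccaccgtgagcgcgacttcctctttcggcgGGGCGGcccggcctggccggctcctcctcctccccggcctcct
Itgb1: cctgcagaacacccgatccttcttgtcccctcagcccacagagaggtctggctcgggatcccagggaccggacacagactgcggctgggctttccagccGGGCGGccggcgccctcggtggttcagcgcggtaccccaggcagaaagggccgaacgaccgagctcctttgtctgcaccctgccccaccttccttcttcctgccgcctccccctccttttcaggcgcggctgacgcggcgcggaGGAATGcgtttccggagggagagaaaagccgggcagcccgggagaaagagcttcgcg

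The Itga3 window held 3 Sp1 matches and 1 Ets match, and that of Itgav held 1 Sp1 match. The Itgb1 window held 1 Sp1 match and 1 TEAD match. None of the 5 motifs was found in the Itgb6 window. The windows of Itga1, Itga8 and Itga11 held none of the 5 motifs, that of Itga5 held 2 Sp1 matches and that of Itga2 held 1. These matches are letters in a window and not sites of binding.

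Both laminin-binding alpha chains of this gene set had higher signals in every knockout than in any control. Itga7, a laminin-binding alpha chain outside the set, was level, at -0.02 (SE 0.21, adjusted p 0.971 in limma), and its groups overlapped. Itga3, whose product anchors epithelial cells to the basement membrane, was measured by a bright and a dim probe. At the brighter probe (A_52_P301804) controls read -0.44, -1.58 and -0.93 and knockouts 0.34, 0.05 and 0.37, always in the order of replicates 1, 2 and 3. The knockouts lay close together and the controls were spread, with control replicate 2 lowest. The change was 1.24 (SE 0.30, n = 3 per group), a 2.36-fold higher signal with a 95% interval from 1.44 to 3.88, and it was not called (adjusted p 0.0659 in limma, adjusted over all probes). It was called without control replicate 1 (1.51, adjusted p 0.0394), where 5.83% of all probes were called. It was also called with array weights (1.57, adjusted p 0.0131), where 23% of all probes were called. The adjusted p ranged from 0.0131 to 0.155 over 15 alternatives. The dimmer Itga3 probe (A_51_P230405) read -4.99, -4.69 and -4.68 in controls and -4.64, -4.25 and -4.40 in knockouts, a smaller change of 0.36 (SE 0.18, adjusted p 0.246). There the gap between knockout replicate 1 and the nearest controls was small beside the spread within either group.

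Itga6, the alpha chain of the epithelial hemidesmosome when paired with Itgb4 and of a laminin receptor when paired with Itgb1, had 3 probes on 2 RefSeq transcripts. The brightest (A_55_P2015670, NM_008397) read 1.62, 1.17 and 1.78 in controls and 2.44, 2.19 and 2.30 in knockouts. Its change was 0.79 (SE 0.20), a 1.73-fold higher signal (95% interval 1.24 to 2.41), and it missed the threshold (adjusted p 0.0725 in limma). A second probe of the same transcript (A_55_P2742291) read 1.58, 0.80 and 1.42 in controls and 2.37, 2.21 and 2.24 in knockouts. Outlier marks fell on 3 of these 6 spots, so it was tested only with outlier spots kept, where the change was 1.01 (SE 0.23, adjusted p 0.0561). On both probes control replicate 2 was again the lowest array, and the 3 knockouts were within a narrow range.

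The third Itga6 probe (A_65_P04508), of transcript NM_001277970, was dim: controls read -4.55, -6.14 and -4.97 and knockouts -3.56, -3.15 and -3.08. It was well above background on 5 of 6 arrays, the exception being control replicate 2, so the size of its change is uncertain. The change was 1.96 (SE 0.41), a 3.89-fold higher signal (95% interval 1.98 to 7.65), with an adjusted p of 0.0523 in limma, the lowest among the integrin probes. This probe was called in 7 of 14 alternatives, which reuse the same arrays and are not independent. Among the 7 were outlier spots kept (adjusted p 0.0484), median centring (0.0400, with 6.36% of all probes called) and the fit without control replicate 1 (0.0392). Over the 14 the adjusted p ran from 0.0108 to 0.126. Without control replicate 2, the array not well above background, the change was 1.499 and was not called (adjusted p 0.0838 in limma). The probe entered the test through the knockout arrays alone. A filter that required signals well above background on all 6 arrays removed it. Set against the brightest Itga6 probe on the same array, the NM_001277970 probe was higher in knockouts by 1.17 on the log2 scale, where controls had log2 ratios of -6.18, -7.31 and -6.75 and knockouts of -6.01, -5.35 and -5.38. The groups did not overlap, and the exact permutation test of this ratio gave p = 0.1, the smallest value that 3 against 3 arrays allow. This ratio was chosen after the values had been seen.

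**Figure D2:**
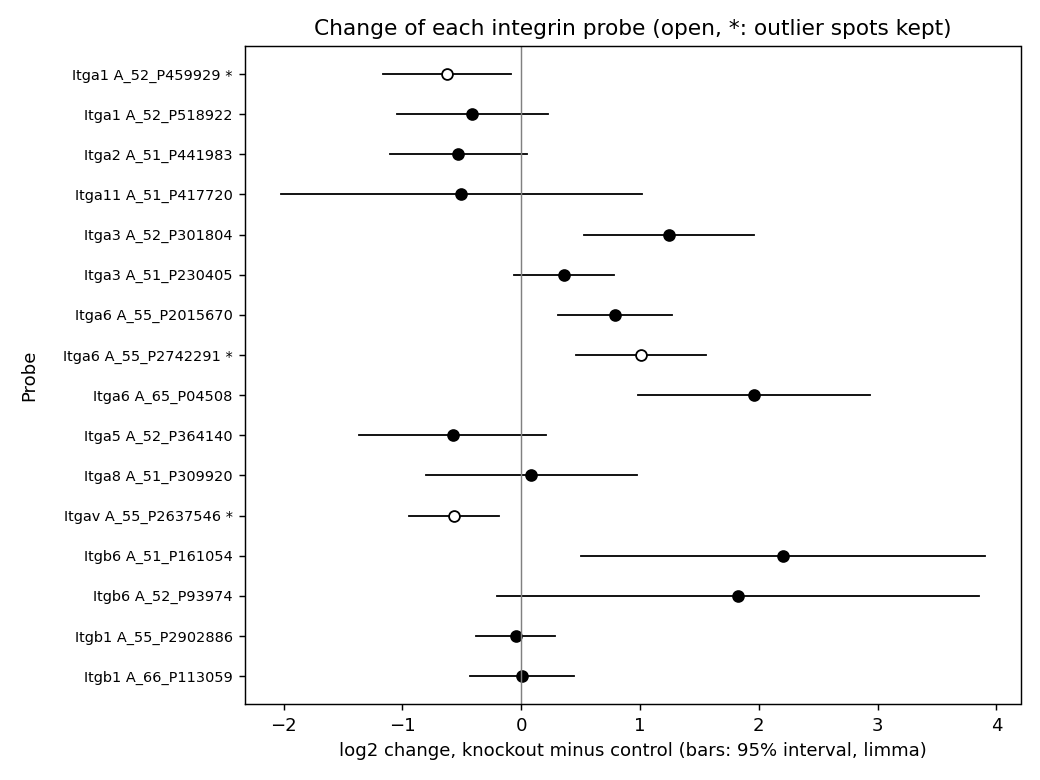
Change of each integrin probe on the log2 scale, knockout minus control (horizontal axis), with 95% intervals from limma; open points with an asterisk were tested only with outlier spots kept. The probes of Itga3, Itga6 and Itgb6 lie to the right of 0, those of Itga1, Itga2, Itga5, Itga11 and Itgav to the left, and both Itgb1 probes at 0.

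None of the collagen-binding alpha chains passed; their changes were below 0, and that of Itga11 turned sign when control replicate 1 was left out and with array weights. Itga1, found on smooth muscle, fibroblasts and other mesenchymal cells, read 0.27, 0.52 and 0.34 in controls and -0.68, 0.07 and -0.13 in knockouts at its brighter probe (A_52_P459929). Every knockout was below every control there, but 3 of the 6 spots carried outlier marks; with them kept the change was -0.62 (SE 0.23, adjusted p 0.136 in limma). At the other Itga1 probe (A_52_P518922) controls read -1.66, -1.90 and -2.15 and knockouts -2.84, -2.09 and -2.02, so the groups overlapped and knockout replicate 1 stood below the rest. The change was -0.41 (SE 0.27, adjusted p 0.362), and the 95% interval of the fold, 0.484 to 1.17, includes both a fall by more than 2-fold and a small rise.

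Itga2, an epithelial and platelet collagen receptor chain, gave -2.39, -2.44 and -2.74 in controls and -3.48, -2.65 and -3.03 in knockouts. Knockout replicate 2 lay within the control range. The change was -0.53 (SE 0.24, adjusted p 0.219 in limma; A_51_P441983). Itga11, a collagen receptor chain of fibroblasts, gave -1.45, -3.82 and -3.25 in controls and -4.08, -3.0005 and -2.95 in knockouts. Control replicate 1 stood far above the other 5 arrays, which overlapped fully. The change of -0.50 (SE 0.64, adjusted p 0.649; A_51_P417720) was smaller than its error and became 0.19 without control replicate 1.

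The RGD-binding alpha chains differed from each other. Itgav, the alpha chain with the widest choice of beta partners, read 1.87, 1.94 and 1.98 in controls and 1.18, 1.36 and 1.54 in knockouts (A_55_P2637546). Controls were within a narrow band and every knockout was below it, but 4 of the 6 spots, including all 3 of the knockouts, carried outlier marks and the probe was tested only with these kept. The change was then -0.57 (SE 0.16), a 1.48-fold lower signal, which did not pass (adjusted p 0.0833 in limma). Itga5, the main fibronectin receptor chain, read -2.14, -2.11 and -2.44 in controls and -3.55, -2.52 and -2.36 in knockouts. Its change of -0.58 (SE 0.33, adjusted p 0.307; A_52_P364140) came largely from knockout replicate 1, and was -0.21 when that array was left out. Itga8, the nephronectin receptor chain of smooth muscle and other mesenchymal cells, read -0.85, -1.48 and -1.93 in controls and -1.20, -1.94 and -0.85 in knockouts. These ranges were almost the same, and the change was 0.09 (SE 0.37, adjusted p 0.904; A_51_P309920), with a 95% interval of the fold from 0.573 to 1.97. It was negative without control replicate 3 or knockout replicate 3.

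The beta chains differed in spread, with an SD over controls of 0.074 at the brighter Itgb1 probe and of 1.22 at the brighter Itgb6 probe (n = 3). Itgb1 read 2.41, 2.27 and 2.37 in controls and 2.24, 2.33 and 2.33 in knockouts at its brighter probe (A_55_P2902886). The change was -0.05 (SE 0.14, adjusted p 0.855 in limma), and the 95% interval of the fold ran from 0.770 to 1.22. Under quantile normalization the change at this probe was -0.20 and with normexp correction -0.25, neither called. The second Itgb1 probe (A_66_P113059) gave control values of 2.08, 1.87 and 1.84 and knockout values of 1.42, 2.001 and 1.88, of which 1.42 came from an outlier spot; its change was 0.01 without that spot and -0.17 with it, and its sign differed between settings.

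Itgb6, the epithelial partner of Itgav, was higher in knockouts at both probes with a wide spread, and neither passed. At its brighter probe (A_51_P161054) the controls read 0.16, -1.94 and 0.20 and the knockouts 0.62, 1.56 and 1.81, the first of these an outlier spot. No knockout fell into the control range, and control replicate 2 was far below the other controls. The change was 2.21 (SE 0.68, n = 3 and 2), a 4.62-fold higher signal with a 95% interval of the change from 0.51 to 3.91, and was not called (adjusted p 0.114 in limma). It was 1.502 without control replicate 2 (adjusted p 0.0895). With the outlier spot, the lowest of the knockouts, kept, the change was smaller. It was then 1.85 (SE 0.63), a 3.61-fold higher signal (adjusted p 0.118 in limma). The dimmer Itgb6 probe (A_52_P93974) read -4.35, -7.15 and -5.04 in controls, with control replicate 2 not well above background, and -4.98, -3.44 and -2.65 in knockouts. Here knockout replicate 1 lay among the controls, and the change was 1.82 (SE 0.85, adjusted p 0.224), or 1.01 without control replicate 2. Both probes were called with array weights (adjusted p 0.0334 and 0.0280), a setting in which 23% of all probes were called.

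A scaling factor for a whole array cancels in a ratio between integrin chains on that array, whereas background correction and quantile normalization do not. Relative to the brighter Itgb1 probe, with outlier spots kept, the groups did not overlap at 7 of 12 alpha chain probes, 5 higher and 2 lower. Set against the same Itgb1 probe, 34.8% of all 40171 other probes did not overlap, 20.4% higher and 14.4% lower. The ratio was higher in knockouts for both probes of Itga3 (by 0.41 and 1.29 on the log2 scale) and for all 3 of Itga6 (by 0.84, 1.05 and 2.01). It was lower, without overlap, for Itgav (-0.52) and for the brighter Itga1 probe (-0.58). The ratio of the other Itga1 probe (-0.37), Itga2 (-0.48), Itga5 (-0.53), Itga8 (0.13) and Itga11 (-0.46) overlapped. For the 7 the exact permutation p was 0.1, the smallest possible, and 0.171 after adjustment over the 12 ratios, so no ratio could pass at this number of arrays. The pair of Itgb6 with its partner was examined in the same way after the values had been seen: relative to Itgav, the brighter Itgb6 probe read -1.71, -3.87 and -1.78 in controls and -0.56, 0.20 and 0.26 in knockouts, a difference of 2.42 (exact permutation p = 0.1).

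**Figure D3:**
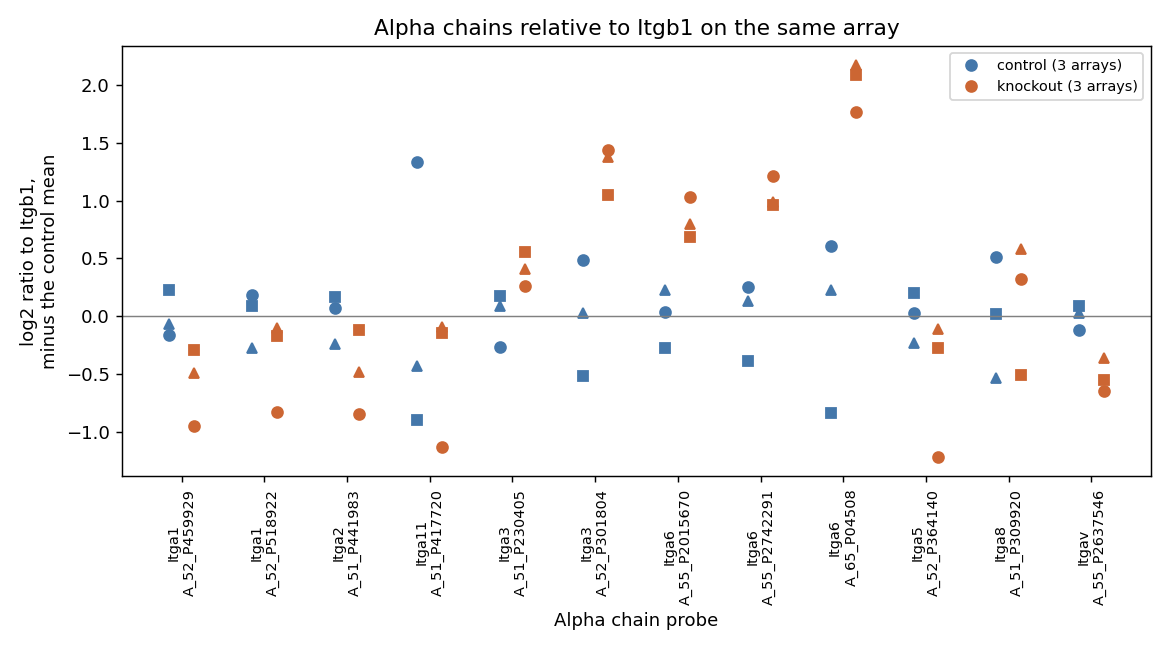
Log2 ratio of each alpha chain probe to the brighter Itgb1 probe on the same array, with the control mean set to 0 (vertical axis), for 3 control and 3 knockout arrays (circle, square and triangle are replicates 1, 2 and 3). The 5 probes of Itga3 and Itga6 have every knockout above every control, and Itgav and the brighter Itga1 probe have every knockout below.

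Among 17 other integrin subunits 15 were tested, with 5 higher, 10 lower and a median change of -0.10. Of the 15, 1 was called, where 5% of all named genes had a called probe. It was Itgb2l, a beta chain related to the leukocyte subunit Itgb2. Its probe was well above background on all 3 knockout arrays and on no control array, so it was at least 2.16-fold higher in knockouts (adjusted p 0.0260 in limma, means -6.41 in controls and -4.69 in knockouts). It entered the test only through the knockout arrays, so its adjusted p is not independent support for a rise. It was called in 2 of 6 fits with an array left out, those without control replicate 1 or knockout replicate 2, and the adjusted p in the other 4 reached 0.0774. Itgb4, the partner of Itga6 in hemidesmosomes, read 2.06, 0.70 and 1.64 in controls and 2.86, 2.59 and 2.67 in knockouts. As at Itga6, no knockout overlapped the controls and control replicate 2 was lowest; the change was 1.24 (SE 0.34, adjusted p 0.0850), and it was called without control replicate 1 (adjusted p 0.0481) and with array weights (0.0182). Itgb3, a further partner of Itgav, read 1.33, 1.46 and 1.37 in controls and 0.66, 0.60 and 0.87 in knockouts, a change of -0.68 (SE 0.15, adjusted p 0.0562). It was called with array weights (adjusted p 0.0158), quantile normalization (0.0381) and normexp with quantile normalization (0.0247). Itgb5 (-0.31, SE 0.19) and Itga9 (-0.52, SE 0.26) did not pass, and Itgb8 was well above background on no array.

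The ligands of these receptors were examined as 3 lists. Of 10 laminin chains tested 3 were called, where 5% of all named genes had a called probe. The 3 were lower in knockouts: Lama1 (-2.67, SE 0.49, adjusted p 0.0434 in limma), Lama2 (-1.94, SE 0.36, adjusted p 0.0441) and Lamc1 (-1.16, SE 0.22, adjusted p 0.0441). Lama3 and Lamb3, chains of a laminin that epithelial cells make and that Itga3 and Itga6 bind, lay on the other side of 0 and did not pass. Lama3 was at 1.58 (SE 0.48, adjusted p 0.110) and Lamb3 at 1.31 (SE 0.48, adjusted p 0.141). Lama5, an alpha chain of mature epithelial basement membrane, was at -0.81 (SE 0.28, adjusted p 0.144). The median of the list was -0.83, and its sign was the same under every alternative (-0.99 to -0.58). When single arrays were left out, Lama1 was called in 2 of 6 fits, Lama2 in 1 and Lamc1 in 0.

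All 7 collagen genes tested were below 0, with a median of -0.72 and 0 calls in limma. An unadjusted p under 0.05 was reached by 3 of the 7, against 26.8% of all tested probes. Col1a1 was at -0.73 (SE 0.29, adjusted p 0.165). Of 14 RGD and latent TGF-beta ligands tested 13 were below 0, with a median of -0.72. Called were 2 of the 14, again against 5% of all named genes: Spp1, which encodes the secreted integrin ligand osteopontin (-2.96, SE 0.46, adjusted p 0.0331), and Tgfb1, whose latent product Itgav integrins bind (-1.49, SE 0.29, adjusted p 0.0468). Fn1, the fibronectin gene and principal ligand of Itga5, was at -0.03 (SE 0.22), Npnt, the ligand of Itga8, at -0.25 (SE 0.41) and Tnc at -0.53 (SE 0.29), none of them called; the signs of Fn1 and Npnt differed between settings. Spp1 was called in 2 and Tgfb1 in 1 of 6 fits with an array left out.

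**Figure D4:**
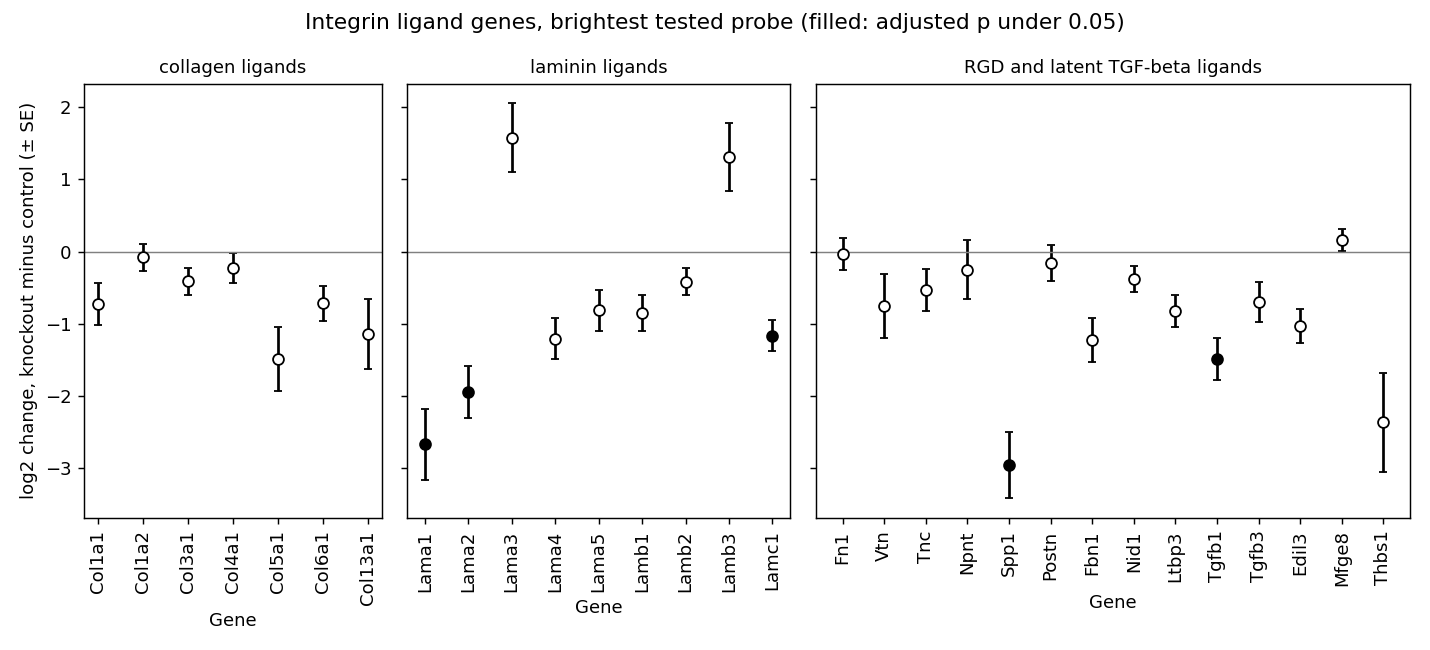
Change of integrin ligand genes on the log2 scale, knockout minus control, with SE (vertical axis), at the brightest tested probe of each gene; filled points had an adjusted p under 0.05. The laminin panel, which leaves out what is not reported here, has Lama3 and Lamb3 above 0 and Lama1, Lama2, Lama5 and Lamc1 below.

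Inside the cell, integrin tails are bound by talins, kindlins and the proteins they recruit. Of 34 such genes 29 were tested and 0 were called in limma. An unadjusted p under 0.05 was reached by 7 of the 29, against 26.8% of all tested probes. Their median change was 0.14. Tln1 was at 0.18 (SE 0.14), and the focal adhesion kinase gene Ptk2 was at 0.15 (SE 0.27), with its sign turned without control replicate 1. Among the kindlin genes, Fermt2 was tested only with outlier spots kept (-0.09, adjusted p 0.751). Fermt1 had the highest change of the list (2.79, SE 1.05, adjusted p 0.184 in limma). Fermt3 had the lowest (-1.22, SE 0.49, adjusted p 0.170). Fermt1 was well above background on 5 of 6 arrays, and both genes had groups that overlapped. Among 12 membrane partners such as tetraspanins and syndecans 11 were tested and 0 were called, 1 had an unadjusted p under 0.05, and the median was 0.09.

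The summed signals of several cell type marker lists differed between the groups, and their part in the integrin values was not tested. The summed signal of the 10 epithelial markers, in multiples of the array's 75th percentile, was 61.2, 22.6 and 47.4 in control replicates 1, 2 and 3 and 92.3, 73.8 and 73.8 in knockouts. All 7 of these markers that could be tested were higher in knockouts (median change 1.16) and 0 were called; Krt8 was at 0.68 (SE 0.44). Control replicate 2, the array with the lowest signal at the brighter Itga3 probe and at every Itga6, Itgb4 and Itgb6 probe shown, also had the lowest epithelial sum. Its smooth muscle (48.7) and squamous epithelium (8.29) sums were the lowest as well. The fibroblast sum was 48.0 to 54.7 in controls and 29.9 to 40.3 in knockouts, with 9 of 9 tested markers below 0 and 1 called, Pdgfrb (-1.17, SE 0.20, adjusted p 0.0395 in limma), which was called in 0 of 6 fits with an array left out (adjusted p 0.0504 to 0.111). Knockout replicate 1 was the array with the lowest Itga1, Itga2, Itga5 and Itgav signals. It had the highest epithelial and smooth muscle (77.8) sums and the lowest fibroblast sum. Despite that epithelial sum, its Itgb6 signals were the lowest among knockouts at both probes (0.62 and -4.98). The same array had the lowest 75th percentile (4910), the fewest spots well above background (69.4%) and the most outlier spots (16.0%), and the part of these in its integrin values was not tested.

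The sums of other marker lists also differed. That of endothelium was 11.46 to 12.9 in controls and 3.64 to 7.81 in knockouts, and that of macrophages 16.1 to 24.8 and 9.09 to 14.9. Of 7 neutrophil markers tested 6 were called lower, where 5% of all named genes had a called probe, and the median change was -3.73. S100a8 (-3.92), S100a9 (-3.73), Retnlg (-4.47) and Mmp8 (-3.85) were among them. With an array left out, Mmp8 was called in 5, S100a9 in 3, Cxcr2 in 2 and Mmp9 in 1 of 6 fits. S100a8 and Retnlg were each called in 3 of 4. The summed signal of the neutrophil markers differed less, 24.4 to 26.1 in controls and 17.1 to 18.9 in knockouts. That sum includes the bright Csf3r (0.17, SE 0.14, not called) and Ly6g (0.78 with outlier spots kept). Of the endothelial markers Erg was called (at least 2.82-fold higher in controls, adjusted p 0.0360 in limma), and in 2 of 6 fits with an array left out. For smooth muscle the sum was 48.7 to 60.2 in controls and 66.4 to 77.8 in knockouts. Platelet markers, examined because Itga2 is a platelet gene, summed to 1.88 to 4.39 in controls and 0.863 to 1.29 in knockouts. Only 3 of these 6 markers were tested, 1 higher and 2 lower in knockouts (median change -0.28), so the sum includes untested markers. Ppbp was called (at least 6.99-fold higher in controls, adjusted p 0.0170 in limma, and called in 4 of 6 fits with an array left out). Of the 6 platelet markers 1 was well above background on no array. The sums of lymphocyte markers overlapped between the groups (6.92 to 17.1 and 6.16 to 14.2), as did those of squamous epithelium (8.29 to 10.6 and 10.3 to 11.6), whereas enteric glia and neuron markers summed to 12.7 to 13.3 and 9.48 to 11.6.

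**Figure D5:**
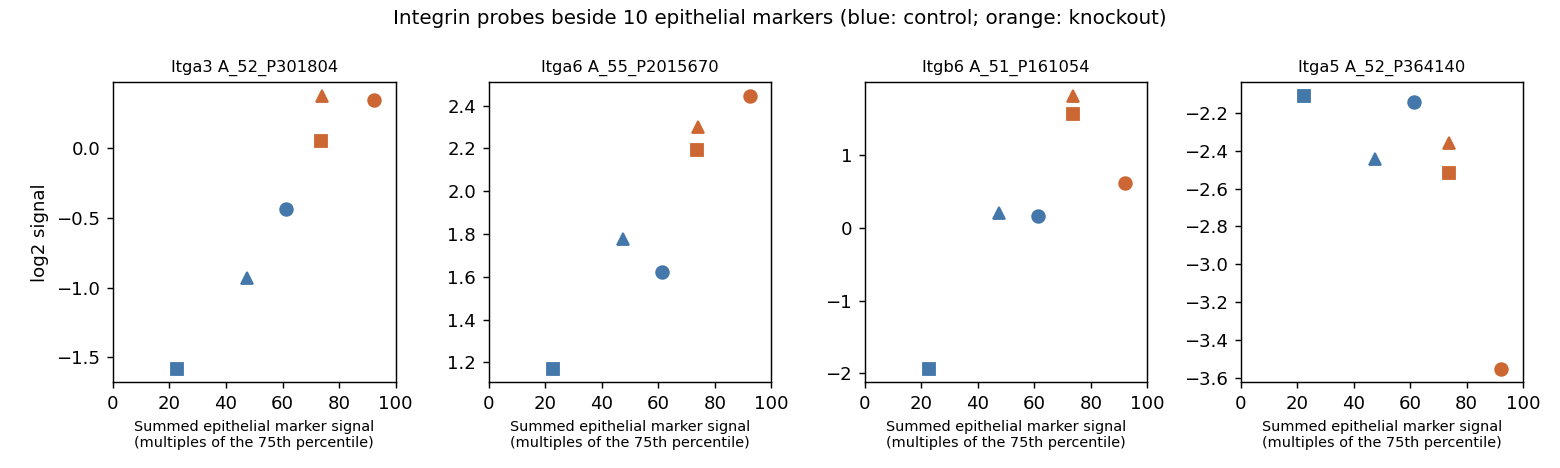
Log2 signal of 4 integrin probes (vertical axes) against the summed signal of 10 epithelial markers (horizontal axis, multiples of the array's 75th percentile) on 3 control (blue) and 3 knockout (orange) arrays; circle, square and triangle are replicates 1, 2 and 3. Control replicate 2 is lowest in the panels of Itga3, Itga6 and Itgb6, and knockout replicate 1 is lowest in the panel of Itga5.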

How the data were processed

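Each of the 6 arrays was a single-channel Agilent array read in the red channel with Feature Extraction 11.5.1.1, per the file headers; the submitters' processing notes name version 10.7. The deposited processed signal is a background-subtracted intensity on a linear scale, not scaled between arrays, per the file headers. The deposited value table holds the same intensity per probe (log2 correlation 0.99999926 or more on each array) and served as an alternative.

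Processed signals of 59305 non-control spots were converted to log2, the array's 75th percentile was subtracted, spots marked as non-uniform or population outliers (3.26% to 16.0% of an array) were set missing, and spots of a probe were averaged. No spot was saturated. Probes well above background on all 3 arrays of a group, with at least 2 usable values in each group, entered a linear model per probe (lmFit, then eBayes; limma 3.58.1 in R 4.3.3), two-sided, genotype only, with Benjamini-Hochberg adjustment over 35351 probes. The number of arrays limits the precision. The fit was tested on simulated data.

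Probes were named through unversioned RefSeq accessions (GRCm38.p6 annotation; 33767 of 56605 named). The files use build mm9, so gene coordinates are not given. The integrin genes and all lists were chosen with earlier results of these data known. Every integrin gene was named; in the 6 integrin lists and 10 marker lists, called genes (up to 6 per list) and genes fixed by name were. No integrin probe was called, so the rule that names genes of like pattern to a called integrin named none. Some named genes were added after their values were seen: Itga7, Lama3, Lamb3, Csf3r, Ly6g, Fermt1 and Fermt3. One gene that entered the list counts is not reported here. The brightest tested probe stood for a list gene; lists were described by counts and medians. For probes measured in 1 group only, a lower bound is given: the mean of the brighter group is set against a floor per array of the dim group, its faintest signal well above background or, if higher, the signal of that probe. Such probes entered the test through the brighter group alone, so their adjusted p is not independent support for the change. Alternatives changed the scaling, background correction, filter, outlier spots, array weights or source table, or left out 1 array.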

Additional observations from a re-analysis of the deposited data

How the results depend on the processing

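Over 15 alternatives, 165 of 189 values of integrin probes kept their direction and their side of the threshold; 12 became calls and 12 changed sign. The number of integrin probes called, 0 in the analysis reported, was 1 with median centring, quantile normalization, normexp with quantile normalization, the value table or outlier spots kept (each time the Itga6 probe A_65_P04508), 5 with array weights and 0 to 2 with an array left out. Integrin probes without overlap, 5 of 13 (37.3% of all tested probes), numbered 8 of 16 with outlier spots kept (34.9% of all probes). They numbered 4 to 7 in the other settings with all arrays and 5 to 8 with an array left out. The share over all probes was not counted there. With an array left out, groups separate more readily, so those counts say nothing about the integrins. Calls over all probes, 1403, were 8119 with array weights, 2249 with median centring, 484 without a filter on dim probes, 2768 with normexp and quantile normalization, 2185 with quantile normalization and 40 to 2114 with an array left out. The change of Islr was -2.58 to -2.34 with an array left out. Array weights turned the sign of Itga11 (0.40), Itgb1 at A_55_P2902886 (0.0187), Fn1 (0.0326) and Npnt (0.21); normexp turned Fn1 (0.0137). The Itgb1 probe A_66_P113059 was at -0.0338 with the 75th percentile over detected probes, -0.0436 with median centring, -0.11 with normexp, -0.17 with outlier spots kept and -0.10 with quantile normalization. With an array left out, the range was -0.17 to 0.39 for Itga8, -0.99 to 0.19 for Itga11, -0.0378 to 0.0816 for that Itgb1 probe, -0.0412 to 0.38 for Ptk2 and -0.53 to 0.14 for Npnt. The cause of these moves was not tested. The median of other integrin subunits ran from -0.27 to 0.03 and that of membrane partners from -0.0573 to 0.17 over all alternatives. The ratio of Itga1 (A_52_P518922) to Itgb1 was 0.05 with normexp. No paired analysis was possible because the labels carry no replicate numbers that the groups share. Ratios to Itgb1 were not run with median centring or another percentile, which cancel in a ratio. Signals close to background limit the Itga6 probe A_65_P04508 and the Itgb6 probe A_52_P93974.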
